A study of Mus musculus with 8 samples.

Results

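Interferon-stimulated genes (ISGs) are the genes that cells switch on when interferon reaches them. They were followed here in mouse bone marrow, in the multipotent progenitors (MPPs), the short-lived blood-forming cells downstream of haematopoietic stem cells. The members were 39 named ISGs (Stat2, Irf1, Irf7, Irf9, Isg15, Isg20, Ifit1, Ifit2, Ifit3, Ifi27, Ifi35, Ifi44, Ifitm1, Ifitm2, Ifitm3, Oas1a, Oas2, Oas3, Oasl2, Mx1, Mx2, Rsad2, Usp18, Bst2, Ddx58, Ifih1, Dhx58, Xaf1, Zbp1, Parp9, Parp14, Trim25, Rtp4, Samhd1, Adar, Eif2ak2, Gbp2, Gbp3 and Irgm1), taken by symbol from the 37980 gene rows of the table. Each of the 39 had 1 row and a mean of at least 10 normalised counts over the libraries, and 0 fell below that mean.

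The study asked what the NUP98-HOXA10hd fusion (NA) does to blood progenitors, and its RNA-seq compared NA MPPs with wild-type (WT) MPPs. NA mice (NA LSL/+;Vav-Cre) carried the fusion at the Rosa26 locus, switched on by Cre under the Vav promoter, which is active across the blood system. WT mice were labelled only as WT, so that no Cre is recorded for the controls. All mice were C57BL/6, and their ages are not given in the sources used here. Each library was made from 1000 cells sorted as Lin-CD48-ckit+Sca1+CD135+CD150-, whose cDNA was amplified before tagmentation. There were 4 NA and 4 WT libraries, named here NA1 to NA4 and WT1 to WT4. Nothing says whether the libraries came from separate animals, so the p-values measure the spread between libraries, which may be technical.

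In outline, interferons bind receptors at the cell surface and activate the kinases JAK1 and TYK2 (type I interferon) or JAK1 and JAK2 (type II). STAT proteins then move to the nucleus and bind the interferon-stimulated response element (ISRE), in a complex with IRF9, or the gamma-activated site (GAS). Many ISG proteins sense viral RNA, degrade it or stop viruses at membranes, and blood stem and progenitor cells are known to keep a set of ISGs on without infection.

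The libraries held an estimated 3876906 to 4916987 reads, and 1 read was worth 0.888 to 1.18 normalised counts. Transcripts of the sorting markers Kit, Flt3 and Ly6a were present in all 8 libraries, with a summed level, Cd34 included, of 7337 to 7655 in NA and 7486 to 7891 in WT. Ly6a, the gene of the gate marker Sca1, is itself known to respond to interferon and was lower in NA (1277 ± 88.5 against 1548 ± 63.3, mean ± SD, n = 4; log2 fold change -0.28, SE 0.0790, limma adjusted p = 0.0257). Leaving out WT4, WT3, WT1, NA4, NA2 or NA1 lost that call (adjusted p up to 0.0738), and it was 0.163 without NA4 and WT4 together. Sex-linked transcripts separated the groups: Xist was at 0.94 to 2.80 normalised counts in NA and at 869 to 1285 in WT, and all 4 Y-linked genes listed were higher in NA. Sex and genotype therefore cannot be told apart in any result below. A second difference was in the immediate early genes, which cells raise within minutes of handling or signalling. Of 16 tested, 11 were higher in NA with all libraries and 6 without NA4 and WT4 (against 10.1% and 3.31% of all genes tested), with a summed level of 44666 to 53789 in NA and 6213 to 21755 in WT. Fos alone was at 20437 ± 665 in NA and 2248 ± 1125 in WT. The list was chosen with earlier results of these data known, so its count is not an unbiased comparison with all genes. The part of both differences in the ISG results was not tested. The fourth library of each group lay close to the middle of its group: over 9000 genes, NA4 was within the range of the other 3 NA libraries for 66.5% and WT4 within that of the other 3 WT libraries for 75.4%, against 37.9% to 50.5% for the other libraries. Independent libraries would each give 50% on average. Apart from ties, the 4 shares of a group average 50% by construction, so the lower shares of the other libraries are no separate comparison. Counts of called genes are given with and without NA4 and WT4 for the immediate early genes, the members and the other ISGs. For the smaller lists, the adjusted p-values of the named genes without NA4 and WT4 are given instead.

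Of the 39 members, 2 were higher and 13 lower in NA MPPs (limma on log2 of the normalised count + 1, adjusted p below 0.05 over 11451 genes). Higher were Irf1 and Gbp3. Lower were Irf7, Ifi27, Ifi44, Ifitm1, Ifitm3, Oas2, Oas3, Mx1, Mx2, Ddx58, Trim25, Rtp4 and Samhd1. Over all genes tested, 10.1% were higher and 7.87% lower. The members were chosen with earlier results of these data known, so their counts are not an unbiased comparison with these shares. The median log2 fold change (NA minus WT) was -0.29 over the members and -0.01 over all genes tested. It was negative for 32 of the 39 members and for 5858 of the 11451 genes tested. Some of the negative values of members were small and changed sign in other fits. The NA and WT values did not overlap for 13 members, 2 of them higher and 11 lower in NA. Among all genes, 11.5% were above and 10.5% below without overlap. In bulk RNA, fewer cells with a transcript and less of it per cell cannot be told apart.

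Without the fourth libraries, limma called 0 members higher (2 at an unadjusted p below 0.05) and 5 lower (14 at an unadjusted p below 0.05), with a median log2 fold change of -0.24. The 5 were Irf7, Ifitm3, Oas2, Mx1 and Trim25. In that fit, 3.31% of all genes were higher and 1.27% lower at the adjusted threshold, and no share was taken at an unadjusted p. The same 5 were called lower in all 19 other fits that were run.

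**Figure D1:**
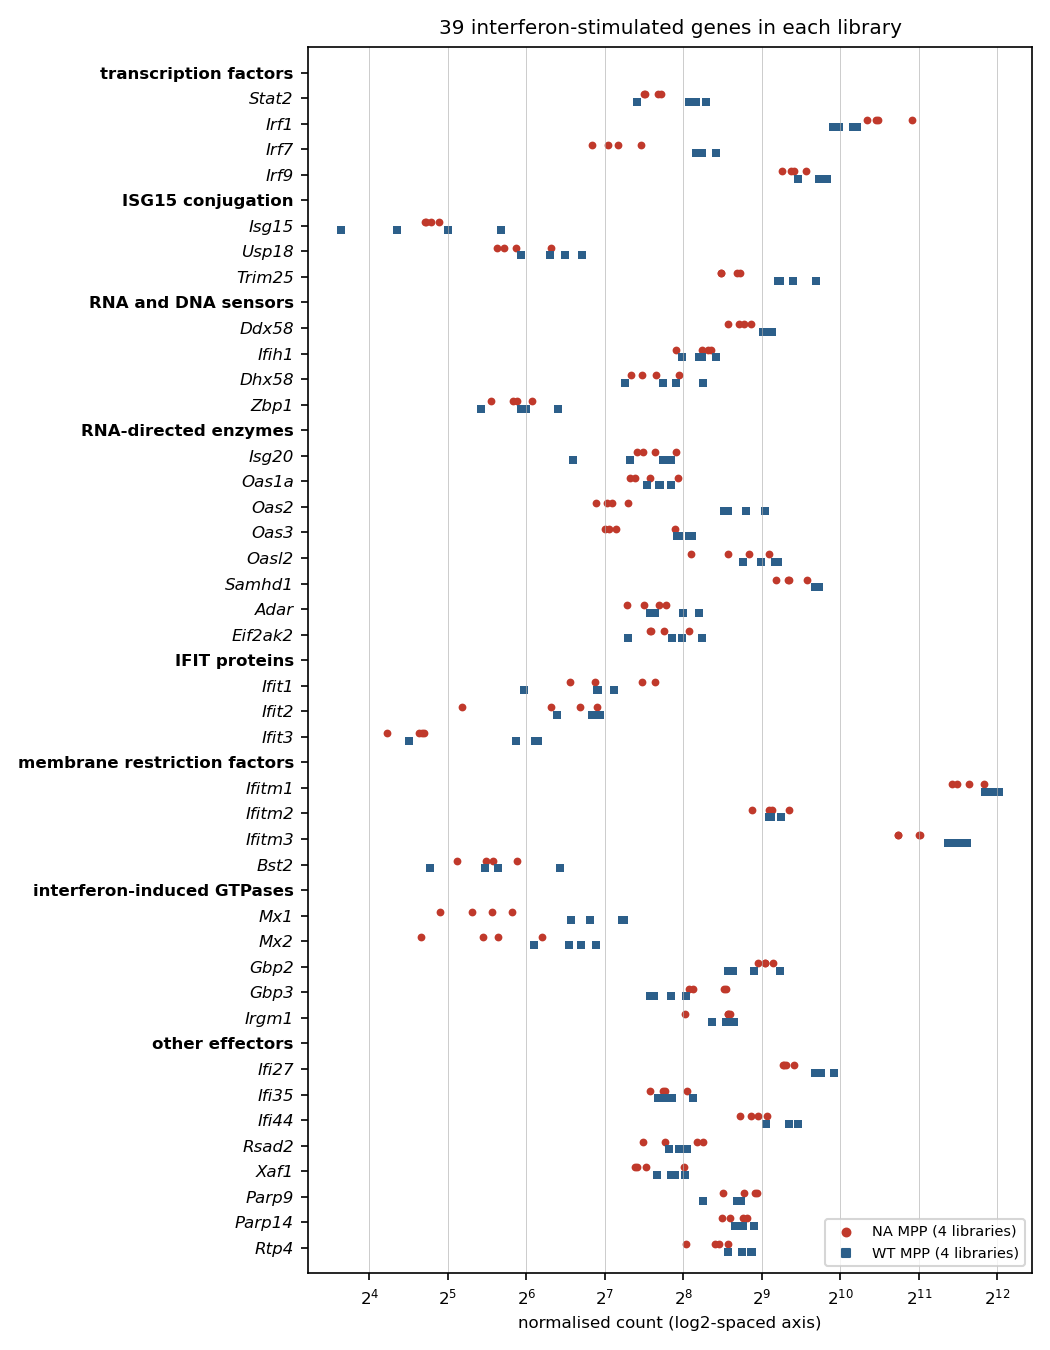
Normalised counts of the 39 members in each library (horizontal axis, spaced by log2), grouped by role; each circle is 1 of 4 NA libraries and each square 1 of 4 WT libraries. The groups separate for 13 members, widely for Irf7, Oas2 and Mx1, and overlap for the other 26.

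The members as a whole made up 0.339% to 0.373% of the normalised counts in the NA libraries and 0.433% to 0.474% in the WT libraries. Their summed level was 15683 to 16925 in NA and 19092 to 20120 in WT. Ifitm1 and Ifitm3 alone gave 28.3% to 35.5% of that sum. Per kilobase of the longest transcript, Ifitm1 was the most abundant member with a mean level of 3977 normalised counts, followed by Ifitm3 with 3515, Ifitm2 with 855, Ifi27 with 774 and Irf1 with 605. Zbp1 was the lowest on that scale, with 18.1.

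Promoter sequence was examined because interferon acts on these genes through the ISRE and the GAS. The RefSeq table of GRCm38.p6 (the mm10 build of the labels), which spans 250 bases before to 50 after each start, had an entry for 29 of the 39 members. The entries of Parp14, Mx2, Parp9, Dhx58, Oas2, Usp18, Ifi27, Mx1, Zbp1 and Rtp4 were missing. An ISRE core, searched as GAAANNGAAA on both strands, stood in the promoters of 16 of the 29 members (55.2%), against 3.99% of the 27025 genes in the table and 3.44% of its promoters. A GAS core, searched as TTCNNNGAA, stood in 10 of the 29 (34.5%), against 9.55% of genes and 8.30% of promoters. Matches of both can share bases, as in the promoter of Bst2. Windows around a match follow, on the strand of the gene, for 2 members lower or higher in NA (Oas3 and Gbp3), for 3 that were not called (Isg15, Ifit3 and Stat2) and for Irf1, the member with a GAS that was higher. Capitals mark the core (GAAANNGAAA or its reverse complement, or TTCNNNGAA for Irf1).
Oas3, chr5:120777715-120777744, minus strand: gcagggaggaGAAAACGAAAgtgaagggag
Gbp3, chr3:142559989-142560018, plus strand: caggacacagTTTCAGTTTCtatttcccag
Isg15, chr4:156200865-156200894, minus strand: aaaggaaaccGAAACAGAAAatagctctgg
Ifit3, chr19:34583363-34583392, plus strand: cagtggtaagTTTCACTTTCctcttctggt
Stat2, chr10:128270266-128270295, plus strand: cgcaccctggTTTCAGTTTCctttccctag
Irf1, chr11:53769914-53769942, plus strand: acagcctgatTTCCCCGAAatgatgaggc

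The core of the ISRE was found in members of every call. Of the 8 lower members with a promoter entry, 3 held it (Ifitm3, Oas3 and Ddx58), as did 1 of the 2 higher members (Gbp3) and 12 of the 19 that were not called. The GAS core stood in 2 of the 8 lower members (Ifitm3 and Samhd1), in 1 of the 2 higher ones (Irf1) and in 7 of the 19 others. These letters are a description of the window and no evidence of binding.

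Among the transcription factors of the response, Irf7 fell and Irf1 rose. Irf7 (ENSMUSG00000025498, chr7:141262706-141266481, minus strand), the factor that amplifies type I interferon production, was at 176, 144, 114 and 132 normalised counts in NA1 to NA4 and at 341, 287, 342 and 303 in WT1 to WT4. Every NA library was below every WT library, with the highest NA value well under the lowest WT value. It was 2.26-fold lower in NA, with a log2 fold change of -1.18 (SE 0.150, adjusted p = 0.000147), and without the fourth libraries the adjusted p was 0.00507. Irf7 shares exonic bases with Phrf1 on the opposite strand, and the use of strand in counting is not stated.

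Irf1 (ENSMUSG00000018899, chr11:53770014-53778374, plus strand), the factor that both interferon gamma and inflammatory signals induce, was at 1295, 1402, 1919 and 1423 in the NA libraries and at 962, 1186, 1141 and 1009 in the WT libraries. NA3 was the highest of the 8, and the lowest NA library still lay above the highest WT library. It was 1.39-fold higher in NA, with a log2 fold change of 0.48 (SE 0.117, adjusted p = 0.0122). It was called in each fit that left out 1 library but not without NA4 and WT4 (adjusted p = 0.0831). Its exons overlap those of Gm17334 on the opposite strand.

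Stat2 and Irf9, whose proteins are parts of the complex that binds the ISRE, were not called. Stat2 was at 181, 182, 211 and 204 in NA and at 314, 170, 287 and 270 in WT (195 ± 15.4 and 260 ± 63.0, mean ± SD, n = 4, as for all later values of this form). WT2 was lower than any other library, while the other 3 WT libraries lay above all of NA. The adjusted p was 0.146 with all libraries and 0.0118 without WT2. With any other library left out Stat2 was not called (adjusted p up to 0.337). Irf9 was at 757, 660, 613 and 677 in NA and at 846, 704, 912 and 865 in WT (677 ± 60.0 and 832 ± 89.3). WT2 was again the lowest of its group, below NA1, and the adjusted p was 0.0622 with all libraries, 0.0238 without WT2 and 0.0362 without NA1. With any other library left out Irf9 was not called (adjusted p up to 0.164). Irf9 shares exonic bases with Rnf31 on the same strand.

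**Figure D2:**
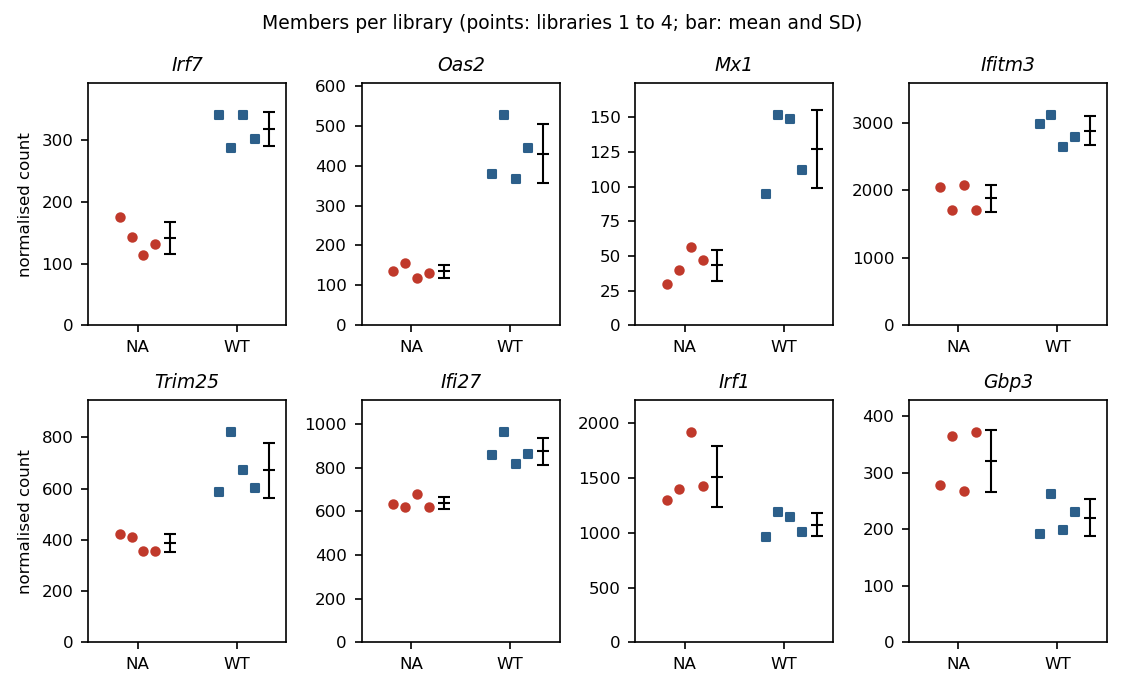
Normalised counts of 8 members that were higher or lower in NA MPPs, each panel with its own linear axis from 0; points are libraries 1 to 4 from left to right, and the bar gives the mean and SD (n = 4). In all 8 panels the NA and WT points are separate, with NA below WT for Irf7, Oas2, Mx1, Ifitm3, Trim25 and Ifi27 and above it for Irf1 and Gbp3.

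The enzymes that bind or alter RNA held the most negative log2 fold change of all members. Oas2 (ENSMUSG00000032690, chr5:120730333-120749853, minus strand), a 2'-5' oligoadenylate synthetase that answers double-stranded RNA by activating RNase L, was at 136, 157, 118 and 130 in NA and at 380, 528, 367 and 445 in WT. All WT values were far above all NA values. It was 3.14-fold lower in NA, with a log2 fold change of -1.65 (SE 0.146, adjusted p = 5.47e-06), and the adjusted p was 0.000419 without the fourth libraries. Oas3, the longest synthetase of the family, was at 237, 141, 128 and 133 in NA and at 276, 268, 246 and 241 in WT. NA1 came within a few counts of the lowest WT library, and the other 3 NA libraries were far below. Its log2 fold change was -0.73 (SE 0.181, adjusted p = 0.0132). The call was lost without NA4 (adjusted p = 0.0531) and without NA4 and WT4 (adjusted p = 0.105).

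Oas1a, the third synthetase, was at 245, 167, 160 and 191 in NA and at 229, 208, 206 and 186 in WT, and the groups overlapped (191 ± 38.3 and 207 ± 17.4). The OAS-like gene Oasl2 was at 544, 456, 274 and 380 in NA and at 589, 434, 577 and 506 in WT (414 ± 115 and 526 ± 71.8). NA3 was its lowest library, and it was called only in the fit without NA1 (log2 fold change -0.53, adjusted p = 0.0424).

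Samhd1, which cleaves the nucleotides that reverse transcription needs, was at 765, 645, 578 and 650 in NA and at 842, 847, 819 and 827 in WT. The WT libraries were tightly grouped and all above NA. Its log2 fold change was -0.35 (SE 0.0960, adjusted p = 0.0236), and leaving out NA2, NA4, WT1 or WT4 gave adjusted p-values of 0.0543, 0.0638, 0.0536 and 0.0661. Without NA4 and WT4 the value was 0.155.

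A further 3 RNA-directed enzymes were not called, and their groups overlapped. Isg20, an RNA exonuclease, was at 179, 200, 240 and 170 in NA and at 213, 229, 96.8 and 160 in WT, with WT3 far below the rest (197 ± 31.1 and 175 ± 59.7). Adar, the adenosine deaminase that edits double-stranded RNA, was at 207, 155, 219 and 181 in NA and at 293, 199, 190 and 256 in WT (190 ± 28.5 and 235 ± 48.6). Eif2ak2, the kinase PKR that stops translation, was at 215, 193, 268 and 190 in NA and at 254, 302, 157 and 232 in WT (216 ± 36.0 and 236 ± 60.5). For the last, both the highest and the lowest library were WT.

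Among the sensors of foreign nucleic acid, Ddx58 alone was called. Ddx58 encodes RIG-I, the sensor of short RNA with a 5' triphosphate, and was at 464, 418, 379 and 438 in NA and at 540, 516, 561 and 545 in WT. The groups did not overlap, and the WT values lay close together. Its log2 fold change was -0.35 (SE 0.0985, adjusted p = 0.0248). Leaving out NA2, NA4, WT1, WT3 or WT4 lost the call, with adjusted p-values of 0.0536, 0.0545, 0.0563, 0.0548 and 0.0792, and without NA4 and WT4 (0.158).

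Ifih1 encodes MDA5, the sensor of long double-stranded RNA, and was at 240, 318, 326 and 301 in NA and at 252, 341, 295 and 302 in WT. The means were nearly the same, 296 ± 38.9 and 297 ± 36.4, and the interval of the log2 difference ran from -0.30 to 0.28. Dhx58, which encodes the regulator LGP2, was at 161, 201, 247 and 178 in NA and at 305, 153, 240 and 213 in WT (197 ± 37.6 and 228 ± 63.3). Zbp1, a sensor of nucleic acid in the Z form, was at 56.9, 47.0, 67.4 and 59.1 in NA and at 84.3, 43.0, 63.8 and 61.3 in WT (57.6 ± 8.39 and 63.1 ± 16.9). For both genes WT1 was the highest and WT2 the lowest of the 8 libraries.

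ISG15 is a small protein that is attached to other proteins like ubiquitin, and Trim25 and Usp18 encode enzymes linked to it. Trim25 (ENSMUSG00000000275, chr11:88999376-89020293, plus strand), a ligase of ubiquitin and ISG15 that also activates RIG-I, was at 422, 412, 358 and 357 in NA and at 589, 822, 673 and 601 in WT. The highest NA library was far below the lowest WT library. It was 1.72-fold lower in NA, with a log2 fold change of -0.78 (SE 0.120, adjusted p = 0.000615; 0.00922 without the fourth libraries). Isg15 itself was at 26.1, 26.3, 27.7 and 29.5 in NA and at 32.0, 12.5, 51.2 and 20.4 in WT. The WT libraries spread around the narrow NA range, the means were 27.4 ± 1.57 and 29.0 ± 16.8, and the 95% interval of the log2 difference ran from -0.75 to 0.94. Usp18, the protease that removes ISG15 and blocks the type I receptor, was at 79.3, 52.6, 58.2 and 49.6 in NA and at 105, 61.2, 89.9 and 79.0 in WT. The groups overlapped, with 59.9 ± 13.4 and 83.7 ± 18.4, and the adjusted p was 0.178.

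None of the 3 genes for IFIT proteins, which bind viral RNA, was called by limma, with 0 higher and 1 lower at an unadjusted p below 0.05. Ifit1 was at 94.3, 200, 117 and 178 in NA and at 119, 139, 62.6 and 120 in WT (148 ± 49.9 and 110 ± 33.1). Ifit2 was at 36.4, 79.9, 119 and 103 in NA and at 115, 83.8, 114 and 123 in WT (84.5 ± 35.9 and 109 ± 17.3), and NA1 held the lowest value. Ifit3 was at 18.7, 25.4, 24.9 and 26.0 in NA and at 71.0, 69.1, 22.8 and 58.6 in WT (23.7 ± 3.41 and 55.4 ± 22.4). WT3 lay inside the NA range, and the other 3 WT libraries were well above it. The log2 fold change of Ifit3 was -1.07 (SE 0.360, adjusted p = 0.0521), and without WT3 it was -1.45 (adjusted p = 0.00434). With any other library left out Ifit3 was not called (adjusted p up to 0.145).

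Of the 4 membrane proteins that keep viruses from entering or leaving cells, the most abundant pair, Ifitm1 and Ifitm3, fell. Ifitm3 (ENSMUSG00000025492, chr7:141009586-141010770, minus strand), which blocks the fusion of viruses in endosomes, was at 2042, 1703, 2074 and 1708 in NA and at 2983, 3123, 2637 and 2797 in WT. No NA library reached the lowest WT library. It was 1.54-fold lower in NA, with a log2 fold change of -0.62 (SE 0.0896, adjusted p = 0.000391; 0.00785 without the fourth libraries). Ifitm1, the relative that acts nearer the cell surface, was at 3177, 2733, 3643 and 2877 in NA and at 4156, 3904, 3666 and 3904 in WT. NA3 was only just under WT3, so that the groups separated by a narrow margin. Its log2 fold change was -0.34 (SE 0.0895, adjusted p = 0.0186). The adjusted p was 0.0629 without NA2, 0.0597 without NA4, 0.0517 without WT4 and 0.135 without NA4 and WT4.

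Ifitm2 was at 546, 560, 649 and 470 in NA and at 553, 606, 545 and 552 in WT, and both the highest and the lowest library were NA (556 ± 73.4 and 564 ± 28.0). The interval of its log2 difference ran from -0.26 to 0.20. Bst2, the gene of tetherin, which holds budding viruses on the cell, was at 47.6, 34.8, 59.1 and 44.9 in NA and at 44.4, 86.1, 27.3 and 49.7 in WT. WT2 was its highest and WT3 its lowest library (46.6 ± 9.99 and 51.9 ± 24.7).

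The interferon-induced GTPases went in both directions. Mx1 (ENSMUSG00000000386, chr16:97447035-97462907, minus strand), a dynamin-like antiviral GTPase whose protein is known to be defective in C57BL/6 mice, was at 29.9, 39.5, 56.3 and 47.2 in NA and at 95, 152, 149 and 112 in WT. The lowest WT library was well above the highest NA library. It was 2.91-fold lower in NA, with a log2 fold change of -1.54 (SE 0.245, adjusted p = 0.000782; 0.0109 without the fourth libraries). Mx2, its neighbour, was at 25.2, 73.3, 49.9 and 43.7 in NA and at 68.4, 118, 104 and 93.2 in WT. NA2 was above WT1, so the groups overlapped, and the log2 fold change was -1.05 (SE 0.298, adjusted p = 0.0262). The call was lost without NA4, WT2, WT3 or WT4 (adjusted p = 0.0702, 0.0674, 0.0609 and 0.0651) and without NA4 and WT4 (0.151).

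Gbp3, a guanylate-binding protein that interferon gamma induces strongly, was at 278, 365, 268 and 372 in NA and at 191, 263, 198 and 230 in WT. NA3 was only slightly above WT2, and no values crossed. The log2 fold change was 0.53 (SE 0.151, adjusted p = 0.0252). The call was lost without NA2, NA4, WT1, WT3 or WT4, with adjusted p-values of 0.0733, 0.0977, 0.0695, 0.0613 and 0.0523, and without NA4 and WT4 (0.178). Gbp2, the adjacent relative, was at 565, 524, 494 and 526 in NA and at 380, 396, 600 and 476 in WT (527 ± 29.0 and 463 ± 100). WT3 was its highest library, and the other 3 WT libraries lay below all of NA. Irgm1, a regulator of the immunity-related GTPases, was at 387, 378, 259 and 381 in NA and at 331, 373, 401 and 383 in WT (351 ± 62.0 and 372 ± 29.5), with NA3 the lowest.

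Among the remaining 8 effectors, Ifi27, Ifi44 and Rtp4 fell. Ifi27, a small mitochondrial protein, was at 632, 619, 678 and 621 in NA and at 857, 964, 816 and 862 in WT. Both groups were tight and did not overlap. The log2 fold change was -0.45 (SE 0.0878, adjusted p = 0.00312). It was called in each fit that left out 1 library, and its adjusted p without NA4 and WT4 was 0.0547. Ifi44 was at 466, 493, 423 and 535 in NA and at 651, 531, 652 and 702 in WT, where WT2 was just below NA4. Its log2 fold change was -0.40 (SE 0.112, adjusted p = 0.0240). The adjusted p was 0.0581 without WT1, 0.0543 without WT3, 0.0941 without WT4 and 0.120 without NA4 and WT4.

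Rtp4, a receptor transporter with antiviral activity, was at 339, 378, 262 and 351 in NA and at 467, 429, 379 and 470 in WT, with NA2 and WT3 nearly equal. Its log2 fold change of -0.40 (SE 0.129) had the largest adjusted p of the called members, 0.0458. The call was lost when NA1, NA3, NA4, WT1, WT2 or WT4 was left out, with adjusted p-values of 0.0581, 0.0922, 0.0802, 0.110, 0.0725 and 0.137, and without NA4 and WT4 (0.217). Rtp4 shares exonic bases with Gm45338 on the same strand.

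The other 5 effectors were not called. Rsad2, the gene of viperin, which makes a chain-terminating nucleotide, was at 179, 305, 217 and 288 in NA and at 225, 250, 247 and 265 in WT, and its means were the same at 247 ± 59.2 and 247 ± 16.9. Xaf1, a pro-apoptotic protein, was at 258, 170, 167 and 184 in NA and at 259, 230, 203 and 237 in WT (195 ± 42.6 and 232 ± 23.3). NA1 was level with the highest WT library, and the other 3 NA libraries were below all of WT. Ifi35 was at 265, 213, 191 and 217 in NA and at 278, 204, 215 and 232 in WT (222 ± 31.1 and 232 ± 32.6). Parp9 was at 437, 362, 483 and 491 in NA and at 410, 410, 304 and 427 in WT (443 ± 59.3 and 388 ± 56.4). Its neighbour Parp14, also an ADP-ribosyltransferase, was at 359, 450, 386 and 432 in NA and at 403, 479, 435 and 427 in WT (407 ± 41.7 and 436 ± 31.7). The groups overlapped for each of these genes.

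**Figure D3:**
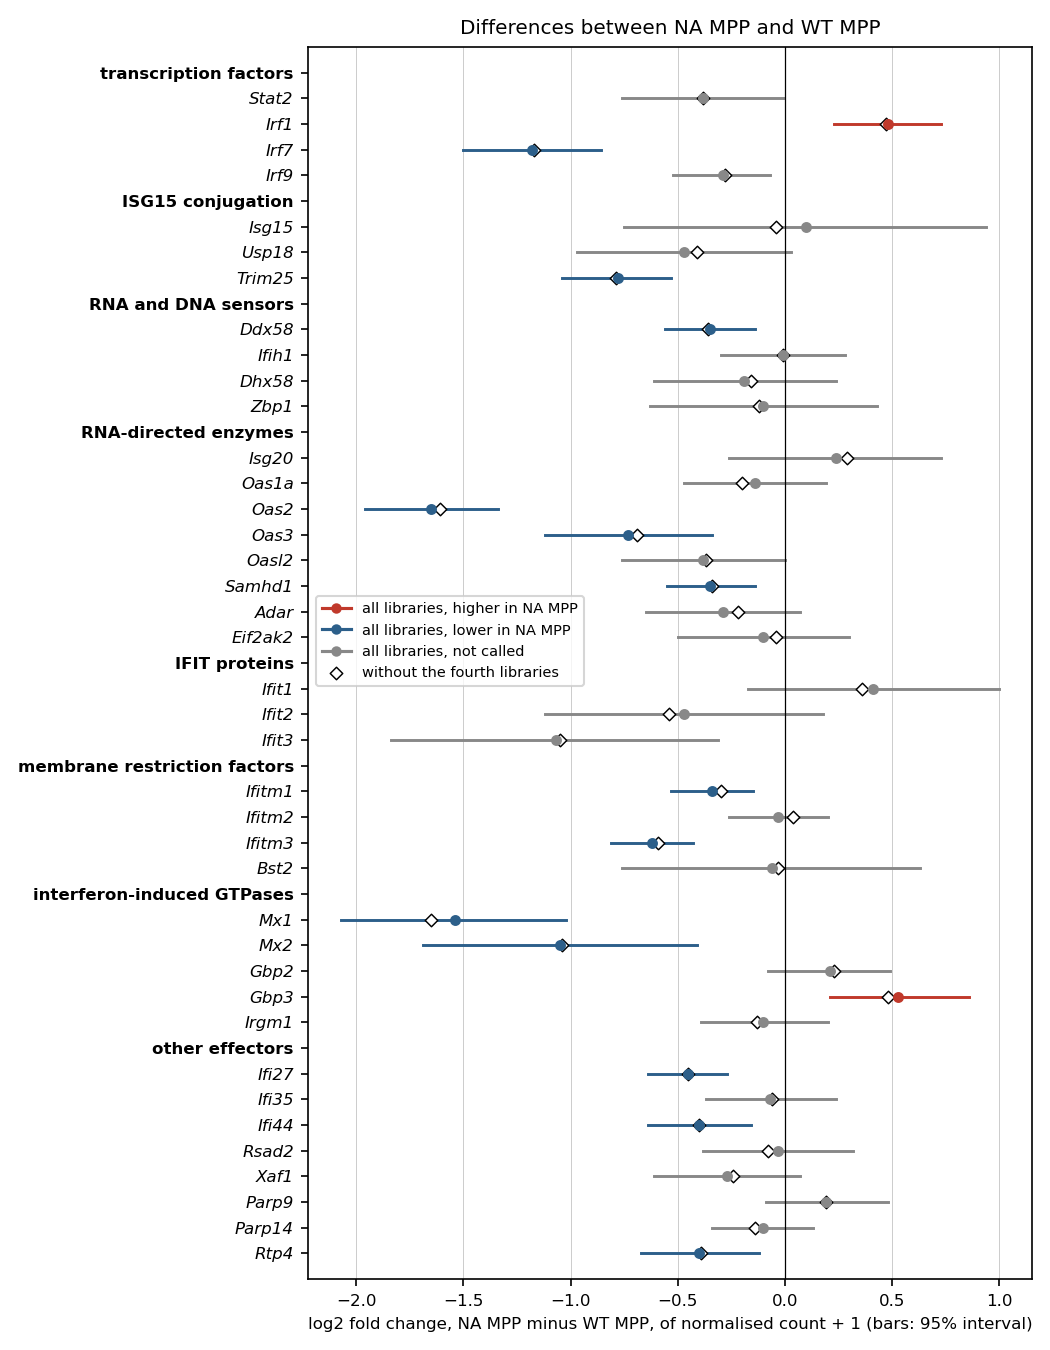
Log2 fold change (NA minus WT) of the 39 members by role, with all 8 libraries (circles, with 95% intervals, coloured by call) and without the fourth libraries (open diamonds). Among called members the estimate moved most for Mx1 (from -1.54 to -1.65) and among all members for Isg15 (from 0.10 to -0.04).

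Members of 6 families lie side by side in the genome and were compared with each other inside each library. The 3 Oas members lie within 177 kb of chromosome 5, the 3 Ifitm members within 56 kb of chromosome 7 and the 3 Ifit members within 99 kb of chromosome 19. Mx1 and Mx2 lie within 114 kb and Parp9 and Parp14 within 140 kb of chromosome 16, and Gbp2 and Gbp3 within 78 kb of chromosome 3. The log2 ratio of neighbours was taken within each library for the 12 pairs this gives, as a description with no test. The pairs reuse members, several of them called above, and are not separate observations. Oas2 relative to Oas1a was -0.84 to -0.09 in NA and 0.73 to 1.34 in WT. Oas3 relative to Oas1a was -0.52 to -0.04 in NA and 0.25 to 0.37 in WT. Relative to Ifitm2, Ifitm3 was 1.60 to 1.90 in NA and 2.27 to 2.43 in WT.

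For Ifit3 relative to Ifit1 the ratio was -2.93 to -2.19 in NA and -1.42 to -0.74 in WT. Mx2 relative to Mx1 was -0.24 to 0.88 in NA and -0.52 to -0.26 in WT, almost touching. The pairs whose ranges overlapped were Ifit2 with Ifit1, Ifit3 with Ifit2, Gbp3 with Gbp2 and Parp14 with Parp9. Members of these families resemble each other in sequence, and reads that fit several of them were shared out by RSEM, so that levels of single relatives are uncertain.

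A further 73 ISGs outside the members, listed with earlier results of these data known, were read from the same fit. Of these, 69 were in the table and 62 tested, and 1 was higher and 15 lower in NA, with a median log2 fold change of -0.24, where 10.1% of all genes were higher and 7.87% lower. The groups did not overlap for 1 higher and 14 lower genes, against 11.5% and 10.5% of all genes. Oas1g, a relative of Oas1a, was at 35.6 ± 13.4 in NA and 107 ± 17.6 in WT (log2 fold change -1.61, SE 0.273, adjusted p = 0.00129). Ifit1bl1 was at 19.1 ± 6.60 and 40.7 ± 7.12 (log2 fold change -1.10, SE 0.334, adjusted p = 0.0354). Helz2, a helicase, was at 52.3, 50.8, 106 and 56.7 in NA and at 110, 139, 115 and 126 in WT, with NA3 close to WT1 (log2 fold change -0.94, SE 0.237, adjusted p = 0.0147). The only higher gene was Dtx3l, the ubiquitin ligase that partners PARP9, at 707 ± 91.3 and 478 ± 79.7 (log2 fold change 0.57, SE 0.130, adjusted p = 0.00839). Parp9 and Dtx3l overlap in their exons, and in all 13 members share exonic bases with another annotated gene. Among these, Irf9, Ifitm2, Parp14 and Rtp4 share them with a gene on the same strand.

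Without NA4 and WT4, 3.31% of all genes tested were higher and 1.27% lower. Of the 62 other ISGs, limma then gave 0 higher (1 at an unadjusted p below 0.05) and 3 lower. The 3, named after their values were seen, were Oas1g, Ly6e and Lgals3bp, with adjusted p-values of 0.0295, 0.0104 and 0.0484. Ifit1bl1 and Helz2 had adjusted p-values of 0.132 and 0.134 in that fit. Without NA4 alone the adjusted p of Helz2 was 0.0528, and Ifit1bl1 was lost without NA1, NA3, WT1, WT2 or WT4 (adjusted p = 0.0602, 0.0643, 0.0916, 0.0818 and 0.0902).

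**Figure D4:**
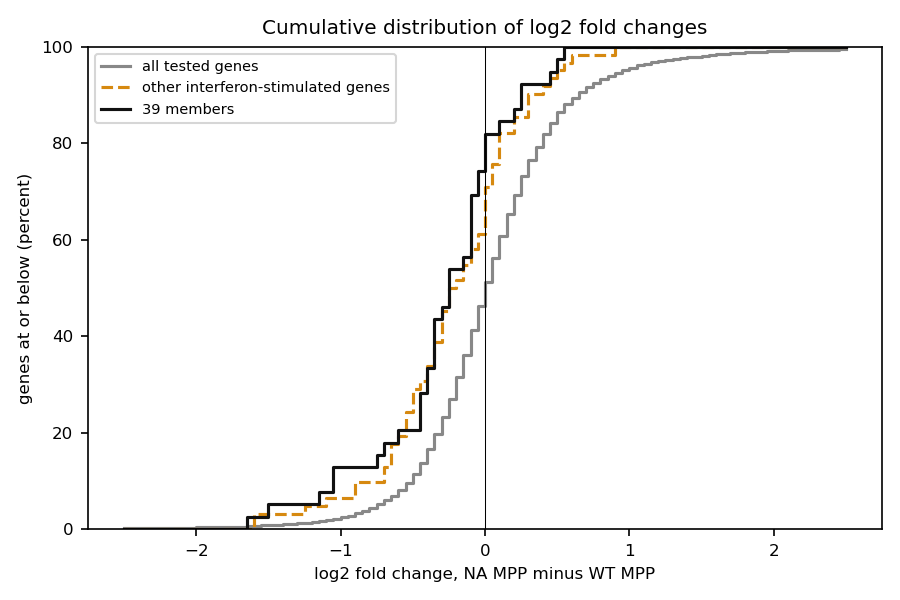
Cumulative share of genes (vertical axis, percent) at or below each log2 fold change (horizontal axis, NA minus WT) for the 39 members, the 62 other ISGs tested and all 11451 genes tested. At -0.5 the share was 20.5% of members, 29.0% of other ISGs and 11.5% of all genes.

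Upstream of the members, none of the listed interferon transcripts had a count. The 7 interferon genes in the table (Ifnb1, Ifna2, Ifna4, Ifnk, Ifng, Ifnl2 and Ifnl3) were listed at 0 in all 8 libraries, and a count of 0 allows up to 3 reads per library. Of the 9 receptor and signalling genes tested, 2 were higher and 1 lower. For this and the next 3 lists, the shares over all genes were again 10.1% higher and 7.87% lower, and counts this small are not set apart from them. Ifngr1, the ligand-binding chain of the interferon gamma receptor, was at 620, 732, 728 and 698 in NA and at 242, 323, 280 and 287 in WT. Every NA library was far above every WT library, and the log2 fold change was 1.30 (SE 0.112, adjusted p = 4.39e-06; 0.000312 without the fourth libraries). Its partner chain Ifngr2 was at 69.2 ± 10.9 and 77.2 ± 22.7 and was not called.

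For the type I receptor, Ifnar1 was at 486, 518, 513 and 509 in NA and at 368, 463, 323 and 385 in WT. All NA values were above all WT values, with a log2 fold change of 0.41 (SE 0.115, adjusted p = 0.0252). The call was lost without NA2, NA4, WT1, WT3 or WT4 (adjusted p = 0.0583, 0.0689, 0.0613, 0.0652 and 0.0658) and without NA4 and WT4 (0.158). Tyk2, the kinase bound to IFNAR1, was at 106, 120, 99.7 and 96.8 in NA and at 146, 171, 166 and 146 in WT. Here NA was below WT without overlap, and the log2 fold change was -0.57 (SE 0.154, adjusted p = 0.0208). The adjusted p was 0.0705 without NA4, 0.0523 without WT4 and 0.158 without NA4 and WT4. Ifnar2, Il10rb, Jak1, Jak2 and Stat3 were not called.

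**Figure D5:**
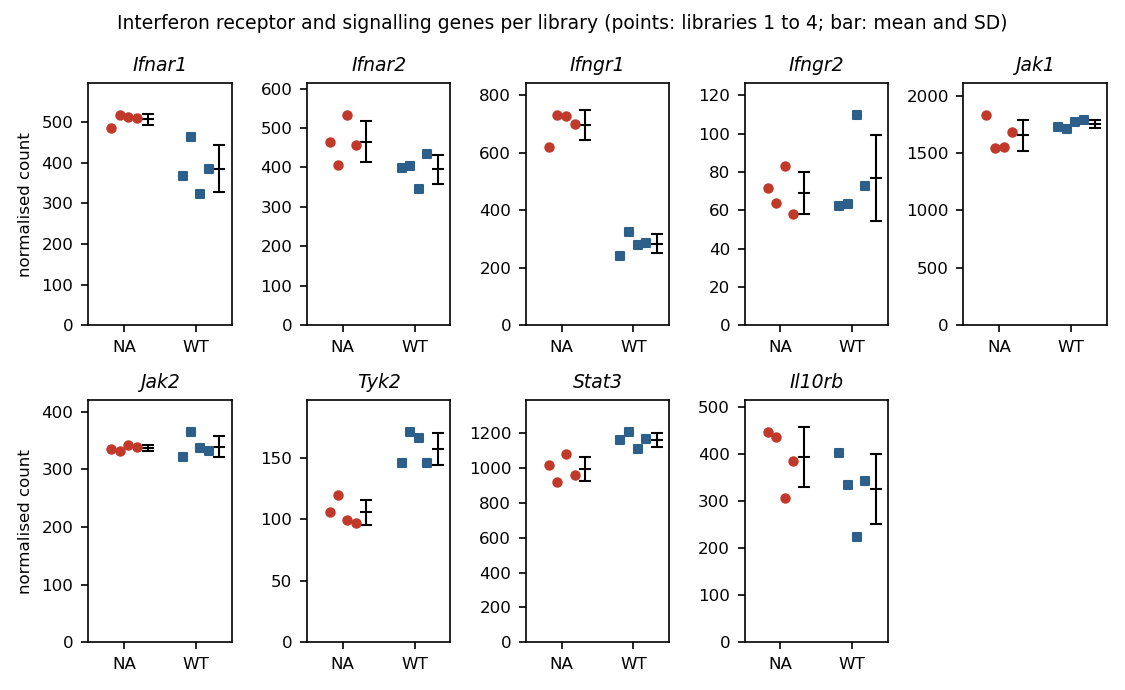
Normalised counts of the 9 receptor and signalling genes tested, each panel with its own linear axis from 0; points are libraries 1 to 4 and the bar gives the mean and SD (n = 4). The NA points lie above the WT points for Ifngr1 and Ifnar1, below them for Tyk2 and Stat3, and among them for the rest.

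Of the 8 tested interferon regulatory factors and their cofactors outside the members, 2 were higher and 1 lower. Irf2bp2, a corepressor that binds IRF2, was at 499 ± 28.4 in NA and 197 ± 14.9 in WT (log2 fold change 1.34, SE 0.110, adjusted p = 2.59e-06; 0.000354 without the fourth libraries). Irf2, a repressor that competes with IRF1, was at 150 ± 28.9 and 92.2 ± 25.7 (log2 fold change 0.73, SE 0.224, adjusted p = 0.0371). Irf8, a factor of the myeloid and dendritic lineages, was at 23.7 ± 7.47 and 48.9 ± 8.61 (log2 fold change -1.06, SE 0.318, adjusted p = 0.0335). Without NA4 and WT4 the adjusted p-values of Irf2 and Irf8 were 0.160 and 0.186. Each was also lost in 5 of the fits that left out 1 library, with adjusted p-values up to 0.108 for Irf2 (without NA2, NA4, WT1, WT3 or WT4) and 0.0979 for Irf8 (without NA2, NA4, WT2, WT3 or WT4).

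Of the 12 tested genes that restrain interferon signalling, 1 was higher and 2 lower. Ptpn6, which encodes the phosphatase SHP-1, was at 806 ± 80.2 in NA and 1266 ± 62.2 in WT (log2 fold change -0.65, SE 0.0895, adjusted p = 0.000255; 0.00696 without the fourth libraries). Trex1, the nuclease that clears DNA from the cytosol, was at 142 ± 11.7 and 220 ± 29.1 (log2 fold change -0.62, SE 0.146, adjusted p = 0.00989; 0.129 without the fourth libraries). Pias1, an inhibitor of activated STAT proteins, was at 427 ± 51.2 and 314 ± 31.0 (log2 fold change 0.44, SE 0.120, adjusted p = 0.0215). Its adjusted p was 0.0639, 0.0802, 0.0505 and 0.0739 without NA2, NA4, WT2 and WT4, and 0.216 without NA4 and WT4.

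Among the 12 tested genes that lead from nucleic acid sensing to interferon, 1 was higher and 1 lower, near the shares over all genes. Tmem173, the gene of STING, was at 425 ± 79.4 in NA and 588 ± 34.5 in WT (log2 fold change -0.49, SE 0.129, adjusted p = 0.0185), and its adjusted p was 0.0642 without NA4 and 0.120 without NA4 and WT4. Unc93b1, the chaperone of endosomal Toll-like receptors, was at 176 ± 26.3 and 106 ± 44.2 (log2 fold change 0.80, SE 0.236, adjusted p = 0.0317). It was lost without NA1, NA3, NA4, WT1, WT3 or WT4 (adjusted p = 0.0569, 0.0722, 0.0632, 0.0694, 0.0810 and 0.0754) and without NA4 and WT4 (0.137).

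Markers of other blood cell types were counted beside the members. Of 7 plasmacytoid dendritic cell markers, Klk1 and Cox6a2 were at 0 in all libraries and Siglech was at most 10.2. The summed level was 812 to 856 in NA and 564 to 604 in WT, of which Tcf4, also expressed in progenitors, gave 755 ± 26.2 and 473 ± 31.1. Without Tcf4 the direction was the opposite, with a sum of 49.8 to 84.9 in NA and 95 to 137 in WT. That sum came mainly from Bst2, itself a member (46.6 ± 9.99 in NA and 51.9 ± 24.7 in WT), and Irf8 (23.7 ± 7.47 and 48.9 ± 8.61). Ccr9 was at 0 in all NA libraries and at 1.13 to 13.3 in WT. Of 8 monocyte and macrophage markers, F13a1 was at 0, and the summed level was 1703 to 1794 in NA and 1802 to 2091 in WT, nearly all of it Lyz2. Without Lyz2 it was 10.2 to 50.4 in NA and 69.2 to 82.7 in WT, and Ccr2 was at 0 in all NA libraries and at 3.55 to 14.7 in WT. Of 8 neutrophil markers, Ly6g and Elane were at 0, and the sum was 18.8 to 36.0 in NA and 39.1 to 369 in WT, with WT3 the highest. Mpo of this list was lower in NA, at 13.2 ± 7.83 against 37.0 ± 14.6 (95% interval of the log2 fold change -2.52 to -0.48, adjusted p = 0.0422). That call was lost without NA2, NA3, WT2, WT3 or WT4 (adjusted p up to 0.123) and without NA4 and WT4 together (0.143). Of 7 T and NK cell markers, Cd3e, Cd3d, Cd8a and Ncr1 were at 0, and the sum was 148 to 171 in NA and 134 to 153 in WT. Of 7 B cell markers, Ms4a1 and Igll1 were at 0, and the sum was 101 to 239 in NA and 182 to 269 in WT.

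The erythroid sum, over 5 markers with Alas2 at 0, was 1.85 to 6.58 in NA and 13.7 to 102 in WT. The megakaryocyte sum, over 6 markers, was 206 to 288 in NA and 216 to 290 in WT. Over 6 mast cell and basophil markers, with Mcpt8, Prss34 and Fcer1a at 0, the sum was 17.9 to 26.1 in NA and 1.14 to 19.5 in WT. The neutrophil, erythroid and monocyte sums, and the dendritic sum without Tcf4, were thus lower in each NA library than in each WT library. With Tcf4 the dendritic sum was higher in each NA library. The T and NK cell, B cell, megakaryocyte, and mast cell and basophil sums overlapped. Of the 39 members, 2 were called higher and 13 lower, and 32 had a negative log2 fold change, against 5858 of the 11451 genes tested. Without S100a9 the neutrophil sums overlapped (17.5 to 32.7 in NA and 28.4 to 211 in WT). Without Car1 the erythroid sums did too (1.85 to 6.58 and 4.55 to 30.2). The dendritic sum holds Bst2, a member, and Irf8, counted above, so its direction is not separate from theirs. The part of these marker differences in the ISG results was not tested.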

How the data were processed

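RNA was measured in 4 NA MPP and 4 WT MPP libraries of 1000 sorted cells each, grouped by sample title. Per the labels, the authors used bcl2fastq, RSEM, DESeq2 and the mm10 build. Versions, annotation and strand use were not given in the sources used here. The deposited values, although filed as raw, were, from their steps, a signal: the authors had divided RSEM counts by a size factor for each library. They are called normalised counts here. In each library 98.3% to 98.9% of low values were whole multiples (within 0.05) of a step of 0.888 to 1.18, from which reads were estimated. Because the values had already been divided, and not all were whole multiples, no count model was fitted.

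The 39 members and all other lists were chosen with earlier results of these data known. Gene symbols and coordinates came from GENCODE M21 on GRCm38, which named 32916 of 37980 rows, and 0.779% of the summed values lay in rows without a name. Of the listed genes, 8 symbols had no row of their own.

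Values were tested as log2(normalised count + 1) with limma 3.58.1 in R 4.3.3, with a mean-variance trend, no covariates and all 8 libraries. Genes with at least 10 in at least 4 libraries entered (11451), p-values were two-sided and adjusted by Benjamini-Hochberg over them, and the threshold was 0.05. The added 1 understates changes of low genes. Intervals are 95%. The script was first tested on data made with 200 known changes. All members with a mean of at least 10 are described in every library. From the other lists, at most the 3 highest and 3 lowest called genes are named. Alternatives covered pseudocounts, filters, scaling, variance trend, replicate block, depth and libraries left out. A correction for GC content was added after the data were seen. Reads of amplified cDNA that carry no molecular identifier are not separate molecules. Some items are not reported here.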

Additional observations from a re-analysis of the deposited data

Results flagged for a closer look

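In groups of 4 libraries, 1 library stood apart from the other 3 of its group by Dixon's criterion for 5 of the 78 member and group combinations, where about 3.90 would be expected by chance. Oas3 was at 237 in NA1 against 128 to 141 in the other NA libraries. Ifit3 was at 18.7 in NA1 against 24.9 to 26.0. Irgm1 was at 259 in NA3 against 378 to 387. Parp9 was at 304 in WT3 against 410 to 427 in the other WT libraries. Ifitm2 was at 606 in WT2 against 545 to 553.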

How the results depend on the processing

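All 15 called members kept their direction in the 19 other fits, and 5 (Irf7, Ifitm3, Oas2, Mx1 and Trim25) stayed past the threshold in each. Both pseudocounts, a mean of at least 50, both other scalings and the GC correction kept all 15 calls. Without a low-value filter, or with depth class as a covariate, Mx2 and Rtp4 were lost. Without the variance trend, 0 members were higher and 7 lower, and 9 other ISGs were lower. In that fit 2 members were higher and 16 lower at an unadjusted p below 0.05. Shares over all genes were taken only at adjusted p, for the main fit and the fit without NA4 and WT4. Counts of other fits or at an unadjusted p therefore cannot be set against all genes. Without NA4 and WT4, 0 members were higher and 5 lower, and 0 other ISGs were higher and 3 lower. With the GC correction 2 other ISGs were higher. Leaving out 1 library at a time gave 1 to 2 members higher and 7 to 14 lower, 1 to 3 other ISGs higher and 8 to 14 lower, and medians of the members' log2 fold change from -0.338 to -0.213. The lowest count of lower members, 7, came without NA4 and without WT4. The lowest count of other lower ISGs, 8, came without WT4. The median was -0.357 with equal totals, a scaling that moved the median of all genes to -0.0793. The cause of these shifts was not tested. The replicate block left 2 members higher and 13 lower. Deviations of same-numbered libraries correlated at 0.0874, 0.0271, 0.0131 and 0.158, too low to pair them, and NA2 and NA3 correlated best with another number than their own.

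Some members that were not called changed sign, none of them past the threshold. Log2 fold changes were -0.04 for Isg15 and 0.04 for Ifitm2 without NA4 and WT4, 0.04, 0.06 and 0.08 for Ifi35, Ifitm2 and Bst2 with the GC correction, and 0.01 and 0.03 for Rsad2 and Ifih1 with the depth covariate. Leaving out 1 library gave ranges of -0.23 to 0.42 for Isg15, -0.02 to 0.39 for Isg20, -0.16 to 0.02 for Ifi35, -0.11 to 0.05 for Ifitm2, -0.14 to 0.12 for Rsad2, -0.32 to 0.22 for Bst2, -0.08 to 0.09 for Ifih1, -0.27 to 0.05 for Zbp1, -0.28 to 0.03 for Eif2ak2 and -0.15 to 0.04 for Irgm1. Of the members that were not called, 4 (Stat2, Irf9, Ifit3 and Oasl2) passed the threshold in some fit. The planned fits of edgeR and DESeq2 on whole reads were not run, because the values had been divided and not all of them gave whole reads. At 1000 cells per library, low members such as Isg15 and Bst2 leave wide intervals.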
